A study of Homo sapiens with 6 samples.

Results

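The mitochondrial ribosomal protein genes were taken as the protein-coding genes of GENCODE 29 whose symbol starts with MRPL or MRPS and a digit. This rule found 78 of 58735 gene rows, 49 MRPL genes and 29 MRPS genes, and all 78 passed the filter on low counts. Their RNA was measured in the human leukaemia line Jurkat, an established line of T cell origin, by RNA-seq of total RNA. Cells received a lentiviral vector with a control hairpin (shCtrl, 3 libraries) or a hairpin against SATB1 (shSATB1, 3 libraries), a chromatin organiser of T cells. Both groups therefore carry a lentiviral hairpin, each group rests on 1 hairpin, and the time after infection is not given in the sources used here. Nothing states that replicates were separate cultures, so p-values reflect only how these libraries vary, and that variation may be technical.

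Mitochondria keep a small genome that encodes core subunits of the respiratory chain, and they translate it on ribosomes of their own. The proteins of these ribosomes are encoded in the nucleus, made in the cytosol and imported. MRPL genes mostly encode proteins of the large subunit, which joins amino acids and releases the chain into the inner membrane, and MRPS genes mostly those of the small subunit, which reads the mRNA. Some have homologs in the bacterial ribosome, and others were added in the course of mitochondrial evolution.

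The libraries held between 26626539 and 28913623 reads in genes. SATB1 itself stood at 279, 259 and 259 CPM (read counts scaled to a common library size) in the control libraries and at 102, 100.2 and 104 CPM after knockdown, so the knockdown was visible in every library (edgeR log2 fold change -1.38, adjusted p = 1.11e-08). All 13 T cell markers examined were expressed, LAT lowest at 9.12 CPM in shCtrl. Of these 13 markers 6 fell and 2 rose, beside 16.6% fallen and 14.3% risen over all genes tested. Of 18 markers of B, myeloid, erythroid, fibroblast or epithelial cells, CD79A fell (60.5 to 50.4 CPM, a call lost without shCtrl 3, shSATB1 1 or shSATB1 3) and COL1A1 rose (15.5 to 20.8 CPM), while the means of PAX5 and COL1A2 were at most 0.0607 and 0.0243 CPM. Of 5 myeloid markers 2 were tested, with log2 fold changes of 0.12 and 0.51, and did not pass. The part of these cell type markers in the results was not tested.

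Start regions of some of the genes are shown first, chosen after their values were seen, because the results on promoter letters refer to them. RefSeq promoter windows (GRCh38.p14, 250 bases before to 50 after the start) were found for 69 of the 78 genes. The first set gives the 100 bases before the start of MRPL11, MRPS23 and MRPL3, which are among the largest falls, with MRPL20, another of them, and MRPS10, which did not pass the test. The RefSeq start of MRPL11 lies 27890 bp inside the GENCODE gene, so its window is that of the RefSeq transcript. Capitals mark the core letters CCGGAAG or their reverse complement CTTCCGG. They are the motif of ETS factors such as GABP, a known regulator of nuclear genes for mitochondria. MRPL11 has no match in the stretch shown. MRPL4, MRPL36 and MRPL57, also among the largest falls but not printed, have none in their windows.
MRPL11 at chr11:66438849-66438948, minus strand: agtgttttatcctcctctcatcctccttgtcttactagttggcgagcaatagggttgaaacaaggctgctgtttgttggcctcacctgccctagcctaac
MRPS23 at chr17:57850045-57850144, minus strand: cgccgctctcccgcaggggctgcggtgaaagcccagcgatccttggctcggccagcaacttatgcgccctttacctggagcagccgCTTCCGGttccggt
MRPL3 at chr3:131502972-131503071, minus strand: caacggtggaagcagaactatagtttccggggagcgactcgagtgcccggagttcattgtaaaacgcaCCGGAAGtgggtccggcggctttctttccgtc
MRPL20 at chr1:1407294-1407393, minus strand: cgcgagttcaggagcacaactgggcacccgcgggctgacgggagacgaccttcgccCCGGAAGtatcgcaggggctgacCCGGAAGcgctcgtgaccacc
MRPS10 at chr6:42217862-42217961, minus strand: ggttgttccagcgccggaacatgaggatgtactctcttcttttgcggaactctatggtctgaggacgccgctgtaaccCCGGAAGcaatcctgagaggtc

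The second set gives the first 30 bases of the transcript for the 7 genes that hold AAGATGGCG there in full, the core motif of the factor YY1, in capitals. These letters include ATG. None of these 7 genes passed the test. MRPL22, MRPL50 and MRPS18B, not printed, hold the core further on in the 50 bases after the start, and MRPL22 and MRPS18B fell.
MRPS10 at chr6:42217832-42217861, minus strand: gggaccggcAAGATGGCGgcgcggacagcg
MRPL42 at chr12:93467514-93467543, plus strand: attgaaacAAGATGGCGggttcgtggtgag
MRPS18A at chr6:43687762-43687791, minus strand: aggtttttgAAGATGGCGgccctcaaggct
MRPL46 at chr15:88467359-88467388, minus strand: gagaacgaAAGATGGCGgcgcccgtaaggc
MRPS30 at chr5:44808947-44808976, plus strand: ggaatcgcgggcaAAGATGGCGgcggccag
MRPS24 at chr7:43869488-43869517, minus strand: cccgcgctccgcttggcccAAGATGGCGgc
MRPL38 at chr17:75904855-75904884, minus strand: ggagggAAGATGGCGgcgccctggtggcga

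Of the 78 genes, 47 fell in shSATB1 and 0 rose at an adjusted p under 0.05 (edgeR quasi-likelihood test, Benjamini-Hochberg adjustment over 17520 genes). Over all genes tested 16.6% fell and 14.3% rose. Of the protein-coding genes tested 20.2% fell, and of the genes at 10 CPM or more 25.9% fell and 17.7% rose. The median log2 fold change of the 78 genes was -0.30, against 0.01 over all genes tested. The falls were small: the median fold of the 47 genes was 1.28, the range 1.14 to 1.89, and 3 genes changed by 1.5-fold or more. No gene with a positive change had an unadjusted p below 0.05. The tests of DESeq2 and limma-voom also gave 47 falls and 0 rises. All shSATB1 libraries lay below all shCtrl libraries in 51 genes and above them in 0, against 23.4% and 21.7% of all genes tested. These are shares of each library's reads, so fewer transcripts per cell and more RNA of other genes cannot be told apart.

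**Figure D1:**
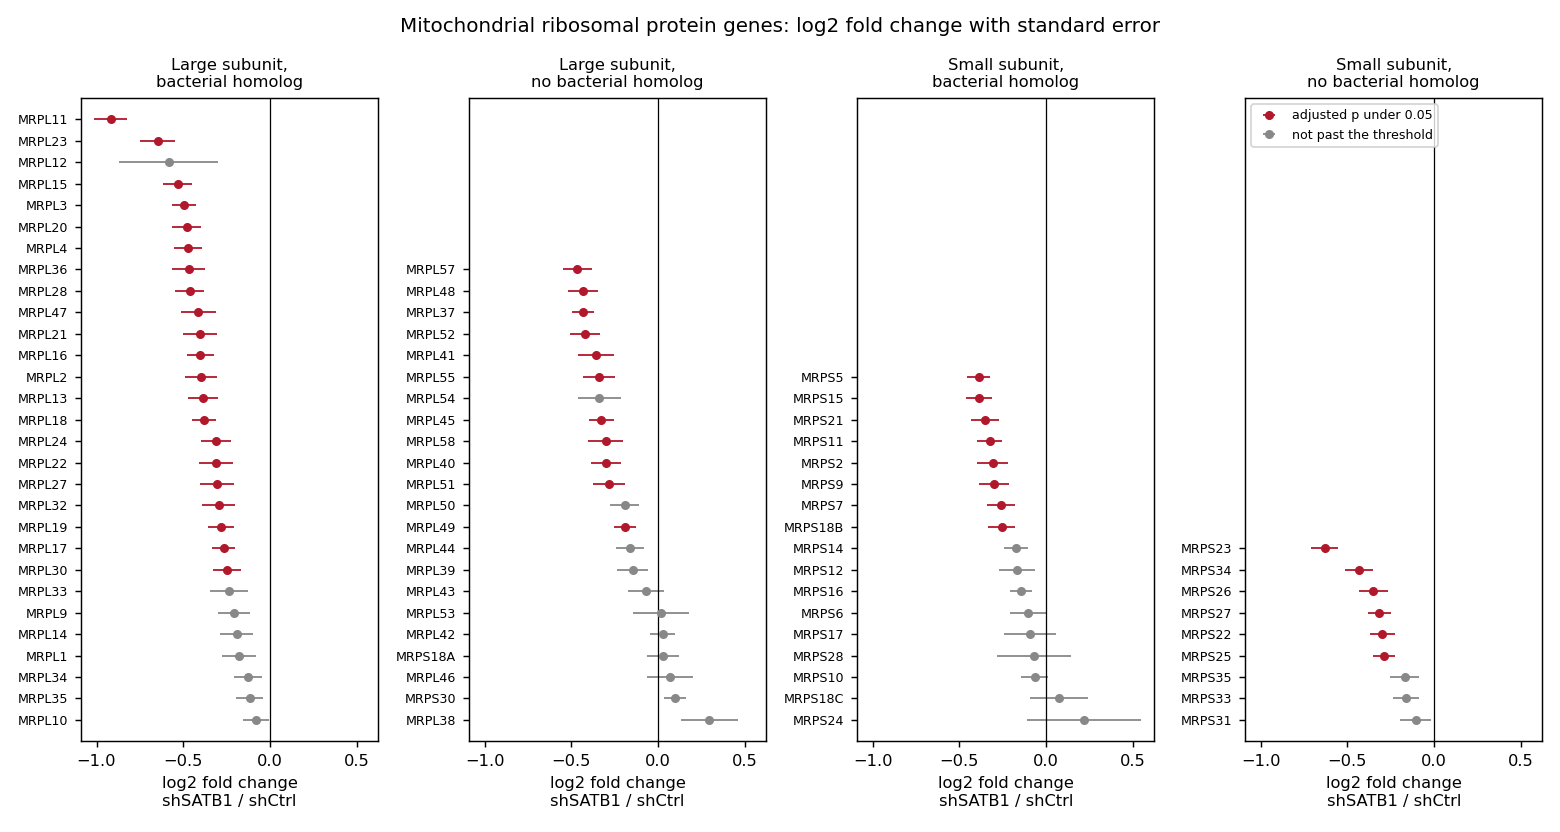
Log2 fold change of shSATB1 against shCtrl (x axis) with its standard error for each gene (y axis), in 4 panels by subunit and presence of a bacterial homolog; MRPS36 is left out. Red points passed an adjusted p of 0.05, grey points did not, and all 47 called genes (46 in these panels and MRPS36) lie left of 0.

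The summed level of the 78 genes was 3934, 4740 and 4215 CPM in shCtrl 1, 2 and 3 and 3383, 3538 and 3464 CPM in shSATB1 1, 2 and 3. The groups did not overlap, and the shCtrl libraries spread far more widely (4296 ± 409 CPM, SD, n = 3) than the shSATB1 libraries (3461 ± 77.4 CPM). Library shCtrl 2 was the highest of all 6 for 65 of the 78 genes, and shSATB1 1 the lowest for 38. Reads in no annotated exon made up 7.77% of reads in shCtrl 2, 9.36% in shCtrl 3, 10.2% in shCtrl 1, 10.9% in shSATB1 2, 11.6% in shSATB1 3 and 11.7% in shSATB1 1. The lower this percentage, the higher was the summed level, over all 6 libraries and within the control group too. With that share as a covariate 6 of the 78 genes fell and the median log2 fold change of the 78 was -0.03, with 42 negative values. Over all genes tested 7.2% fell in that fit, with a median of -0.01. Of the 47 genes that fell without the covariate, 38 were negative and 9 positive with it (MRPL21, MRPL22, MRPL27, MRPL32, MRPL47, MRPL51, MRPL58, MRPS7 and MRPS9), none of the 9 past the threshold. As the share differs between the groups without overlap, its part and that of SATB1 knockdown cannot be told apart. Without shCtrl 2, 39 genes fell, with a median of -0.20; without shSATB1 1, 31 genes fell.

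**Figure D2:**
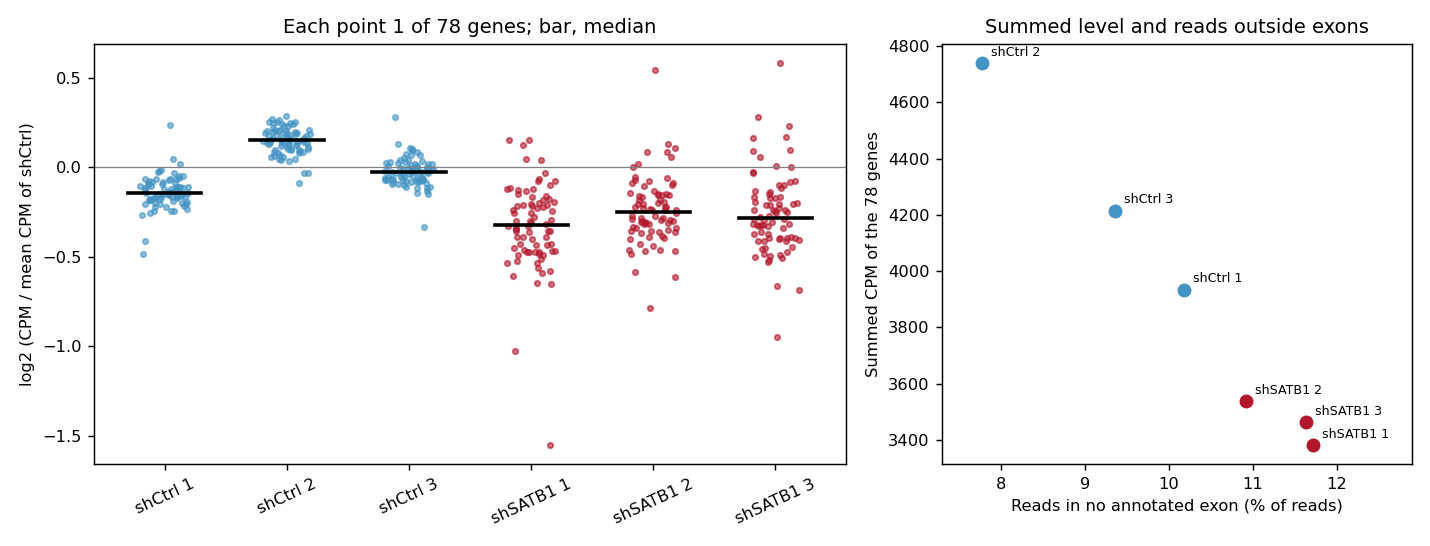
Left, log2 of CPM over the shCtrl mean (y axis) for each of the 78 genes in each library (x axis), with the median as a bar. Right, summed CPM of the 78 genes (y axis, not starting at 0) against the percentage of reads in no annotated exon (x axis); shCtrl 2 is highest at 4740 CPM and shSATB1 1 lowest at 3383 CPM.

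Large subunit proteins with a bacterial homolog fell in 21 of 29 genes, with a median log2 fold change of -0.38 and all 29 values negative. MRPL11 encodes a protein at the base of the stalk where translation factors bind, and it stood at 97.4, 129 and 112 CPM in the control libraries and at 55.1, 65.3 and 58.2 CPM after knockdown. The groups lay far apart, and the fall of 1.89-fold was the largest of the 78 genes (log2 fold change -0.92, SE 0.0942, edgeR adjusted p = 1.54e-05). MRPL11 (ENSG00000174547) is on the minus strand of chromosome 11 (66435075 to 66466738, hg38, as for all gene positions). MRPL23 (ENSG00000214026), a protein beside the exit tunnel (chromosome 11, 1947278 to 1984522), went from 15.5, 18.4 and 15.3 CPM to 10.5, 10.7 and 10.2 CPM. This is a fall of 1.57-fold (SE of the log2 value 0.0984, edgeR adjusted p = 0.000307), with every shSATB1 library below every shCtrl library.

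MRPL3 (ENSG00000114686) encodes a core protein near the peptidyl transferase centre (chromosome 3, 131462212 to 131502983) and had the highest CPM of the 78 genes. It went from 178, 209 and 184 CPM to 132, 138 and 135 CPM, and the groups did not overlap (log2 fold change -0.50, SE 0.0692, edgeR adjusted p = 0.000162). MRPL15, MRPL20, MRPL4, MRPL36 and MRPL28 fell between 1.38-fold (MRPL28) and 1.45-fold (MRPL15), each without overlap. MRPL20 and MRPL4 belong to the proteins that bind ribosomal RNA early in assembly of the bacterial subunit. The 8 genes of this group that did not pass were MRPL12, MRPL33, MRPL9, MRPL14, MRPL1, MRPL34, MRPL35 and MRPL10, with log2 fold changes from -0.58 (MRPL12) to -0.08 (MRPL10).

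Large subunit proteins without a bacterial homolog fell in 11 of 22 genes, with a median log2 fold change of -0.24. MRPL57, one of the smallest of these proteins, stood at 96.5, 119 and 105 CPM in the control libraries and at 70.8, 83.2 and 78.02 CPM after knockdown. Its fall of 1.38-fold was the largest of the group (edgeR adjusted p = 0.000949). MRPL37 went from 148, 166 and 152 CPM to 112, 119 and 114 CPM, a 1.35-fold fall with tight shSATB1 values (edgeR adjusted p = 0.000242). MRPL58 encodes a peptidyl-tRNA hydrolase that rescues stalled ribosomes and sits in the central protuberance, and it fell from 33.8 ± 4.99 to 27.4 ± 1.78 CPM, with overlapping groups (edgeR adjusted p = 0.0334). The MRPL58 call held in 9 of 17 other settings: it was lost when any library other than shCtrl 1 was left out, and its log2 fold change was 0.11 with the covariate. MRPS30 and MRPS18A carry small subunit names but lie in the large subunit. MRPS30 stood at 69.4, 73.8 and 69.3 CPM in the control libraries and at 73.1, 75.0 and 79.6 CPM after knockdown, overlapping and not past the threshold (edgeR adjusted p = 0.253).

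Small subunit proteins with a bacterial homolog fell in 8 of 17 genes, with a median log2 fold change of -0.17. Of the S18 family, MRPS18B and MRPS18C were counted here and MRPS18A among large subunit proteins without a bacterial homolog. The counts by group depend on this choice. MRPS5, found where the mRNA enters, had the largest of these falls, from 127 ± 9.63 to 96.9 ± 3.60 CPM (edgeR adjusted p = 0.000844). MRPS15 and MRPS21 followed at 1.31-fold and 1.28-fold. MRPS12, a protein of the decoding centre, stood at 18.7, 24.3 and 19.1 CPM in the control libraries and at 17.9, 19.5 and 18.03 CPM after knockdown, with overlapping groups (edgeR adjusted p = 0.241).

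Small subunit proteins without a bacterial homolog fell in 6 of 9 genes, with a median log2 fold change of -0.30. MRPS23 (ENSG00000181610, chromosome 17, 57834781 to 57850056, minus strand) stood at 58.9, 71.8 and 60.1 CPM in the control libraries and at 40.5, 42.4 and 40.2 CPM after knockdown. It fell 1.55-fold without overlap (SE of the log2 value 0.0798, edgeR adjusted p = 7.79e-05). MRPS34, a gene mutated in some patients with Leigh syndrome, went from 70.7, 86.4 and 80.7 CPM to 53.6, 62.2 and 60.2 CPM. This fall was 1.35-fold (edgeR adjusted p = 0.00142). MRPS36, whose product is found in the 2-oxoglutarate dehydrogenase complex rather than the ribosome, fell 1.36-fold from 22.4 ± 3.17 to 16.4 ± 0.389 CPM.

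**Figure D3:**
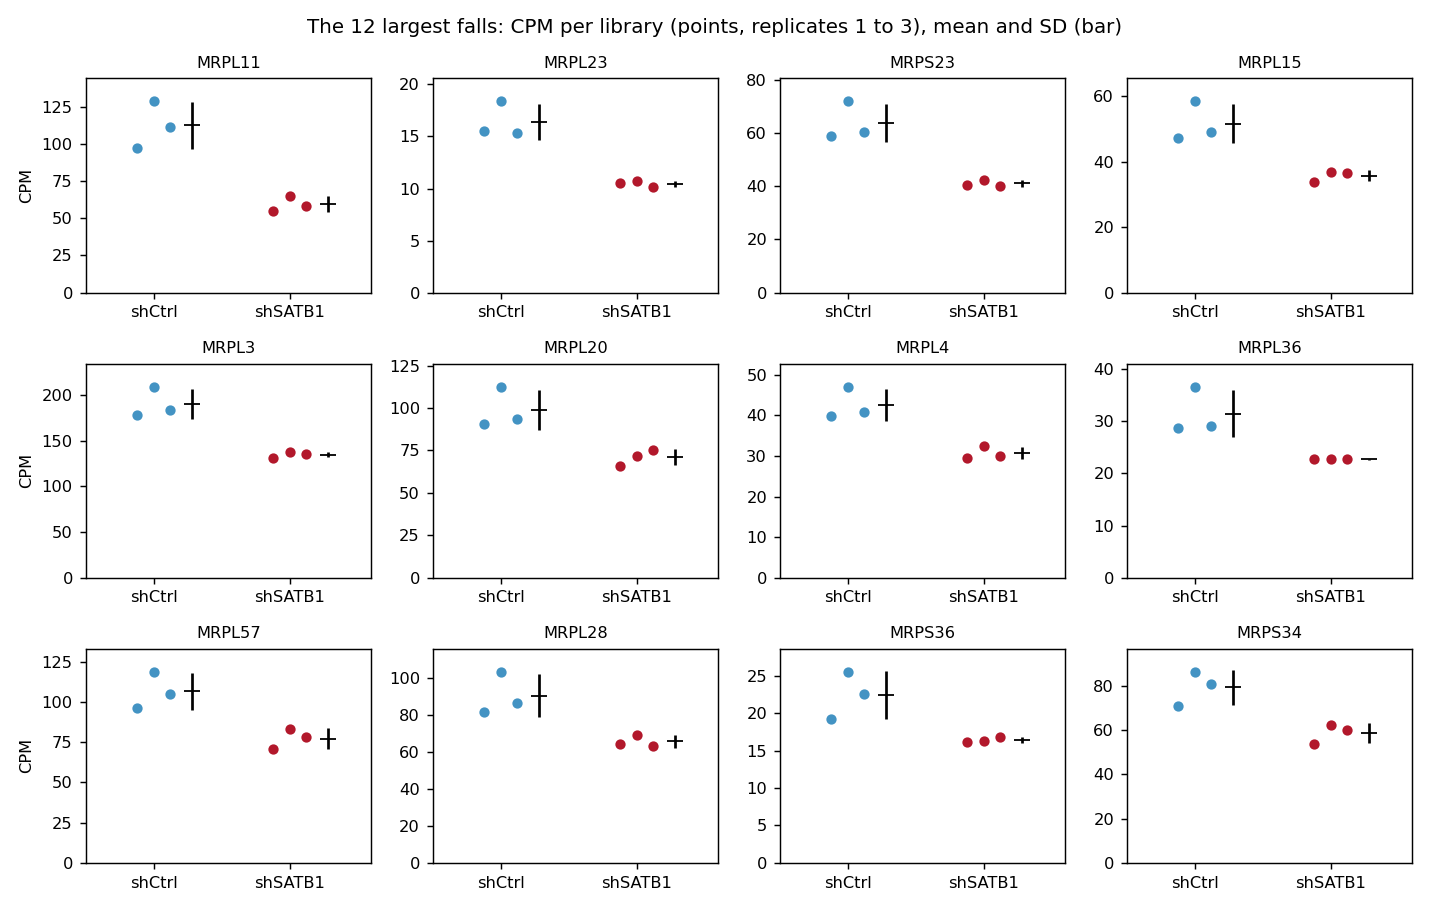
CPM (y axis, from 0) of the 12 genes with the largest falls past the threshold, by group (x axis); points are libraries in the order of replicates 1 to 3 and bars give the mean and SD. In each panel all 3 shSATB1 points lie below all 3 shCtrl points.

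By place in the ribosome, 5 of 6 exit tunnel genes fell (MRPL17, MRPL22, MRPL23, MRPL24 and MRPL45, but not MRPL44), as did 4 of 6 genes of the central protuberance. Leaving out single libraries lost the call of MRPL22 in 5 of 6 fits (all but without shCtrl 1), of MRPL24 in 3 (shCtrl 3, shSATB1 1, shSATB1 3) and of MRPL17 in 1 (shSATB1 3). In the central protuberance, the call of MRPL58 was lost in 5 such fits and that of MRPL40 in 3 (shCtrl 3, shSATB1 1, shSATB1 2). Of 8 MRPS genes listed for the small subunit head 2 fell, MRPS7 and MRPS9. Mitoribosomal protein genes with other symbols were not placed in the head list. Of the 3 stalk genes MRPL10, MRPL12 and MRPL53 none fell by edgeR, DESeq2 or limma-voom, with 0 at an unadjusted p under 0.05. MRPL11, at the base of the stalk, was not counted in this list and fell (log2 fold change -0.92). The call of MRPS7 was lost without shCtrl 3, shSATB1 1 or shSATB1 3, and that of MRPS9 without shCtrl 2 or any 1 of the shSATB1 libraries. MRPL12 and MRPL53 had few reads, from 20 to 148 per library, while MRPL10 stood at 57.0, 67.9 and 65.1 CPM in the control libraries and at 58.2, 63.3 and 58.3 CPM after knockdown. The 3 members of the S18 family, which occupy different places in the ribosome, did not have the same call. MRPS18B fell from 43.6 ± 3.13 to 36.5 ± 2.42 CPM (edgeR adjusted p = 0.0224), MRPS18A stood at 19.5 ± 1.87 and 19.9 ± 1.46 CPM and MRPS18C at 5.47 ± 1.37 and 5.75 ± 0.305 CPM. The MRPS18B call was lost with length and GC offsets (edgeR adjusted p = 0.0816) and without shCtrl 3 (0.0919), shSATB1 1 (0.126) or shSATB1 3 (0.109). The difference between these 3 changes was not tested.

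Levels per kilobase of exon (CPM divided by summed exon length) ran from 0.256 for MRPS24 to 74.8 for MRPL18 in shCtrl, with a median of 19.2 in shCtrl and 15.9 in shSATB1. The highest were MRPL18 (74.8), MRPS34 (72.3), MRPL3 (70.1), MRPL51 (63.4) and MRPL37 (60.9), and all 5 fell. The 8 genes under 10 CPM in shCtrl were MRPL12, MRPS28, MRPS17, MRPL53, MRPL46, MRPS18C, MRPS24 and MRPL38, and none of them passed edgeR, DESeq2 or limma-voom (0 at an unadjusted p under 0.05). In 6 of these 8 at least 25% of exon bases are also exons of another annotated gene, up to 68.2% in MRPL12. HTSeq can leave reads in shared exons uncounted as ambiguous, so these levels may miss reads; the part of this in the calls was not tested. Ambiguous reads made up 9.84% ± 0.301 of reads in shCtrl and 9.11% ± 0.180 in shSATB1. Of all 10 genes with such an overlap only MRPL51 fell, from 82.7, 113 and 98.8 CPM to 77.3, 84.2 and 81.1 CPM, with overlapping groups. Its call was lost when any library other than shCtrl 1 was left out: the edgeR adjusted p was 0.0706 without shCtrl 2, 0.100 without shCtrl 3, and 0.146, 0.0804 and 0.116 without shSATB1 1, 2 and 3.

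Copies elsewhere in the genome took few reads. The files hold 77 further rows with MRPL or MRPS symbols, 75 of them pseudogenes, and 4 of the 77 were tested and did not pass (edgeR adjusted p from 0.132 to 0.813). The 70 processed pseudogenes together held 152 reads in all 6 libraries, against 647759 in the 78 genes, and 52 of them had none. Reads with several alignments are set apart in the files' closing lines and not assigned to genes.

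The genes are short, with a median summed exon length of 2539 bases against 4122 bases over all genes tested. Fold changes in these libraries went with length. Among other genes at 10 CPM or more, the median log2 fold change was -0.21 in the shortest of 5 equal classes of exon length (up to 3195 bases) and 0.12 in the longest, and 45.5% of the shortest class fell. The same level was asked of the mitochondrial ribosomal protein genes here, which left 70 of the 78. In the shortest class 33 of 49 of them fell, with a median of -0.31. In the next 3 classes 7 of 11, 4 of 6 and 3 of 3 fell, where 32.7%, 22.4% and 17.0% of other genes did. The longest class held 1 of the 70 genes, MRPL42, which did not pass, and 10.9% of its other genes fell. With offsets for length and GC content 42 of the 78 genes fell and the median was -0.23.

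**Figure D4:**
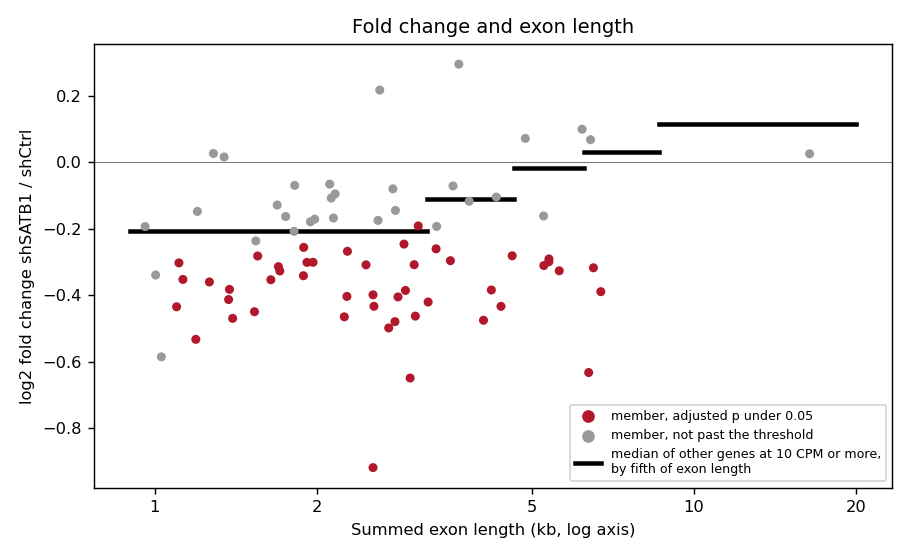
Log2 fold change (y axis) against summed exon length (x axis, log scale) for the 78 genes, red where past the threshold. Black lines give the median of other genes at 10 CPM or more in each of these classes of exon length, drawn within the plotted range; most red points lie below the line of their class.

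The calls that held under every one of 17 other settings were those of MRPL11, MRPL3, MRPL37 and MRPS23. With the percentage of reads outside annotated exons as a covariate, the 6 genes that fell were these 4, MRPL19 and MRPS25, the last 2 named for this outcome. In that fit 7.2% of all genes tested fell. MRPL11 kept a log2 fold change of -0.51 there (edgeR adjusted p = 3.80e-05) and MRPS23 one of -0.35 (edgeR adjusted p = 0.0148). MRPL19 stood at 52.1, 50.2 and 52.0 CPM in the control libraries and at 44.6, 37.8 and 44.6 CPM after knockdown, and MRPS25 at 63.5, 58.0 and 63.3 CPM and at 50.7, 51.0 and 49.4 CPM. In both, unlike in most of the 78 genes, shCtrl 2 was the lowest control library. The MRPL19 call was lost without shCtrl 3 or shSATB1 2. The log2 fold changes of MRPL19 and MRPS25 were -0.28 and -0.29 without the covariate and -0.41 and -0.40 with it.

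**Figure D5:**
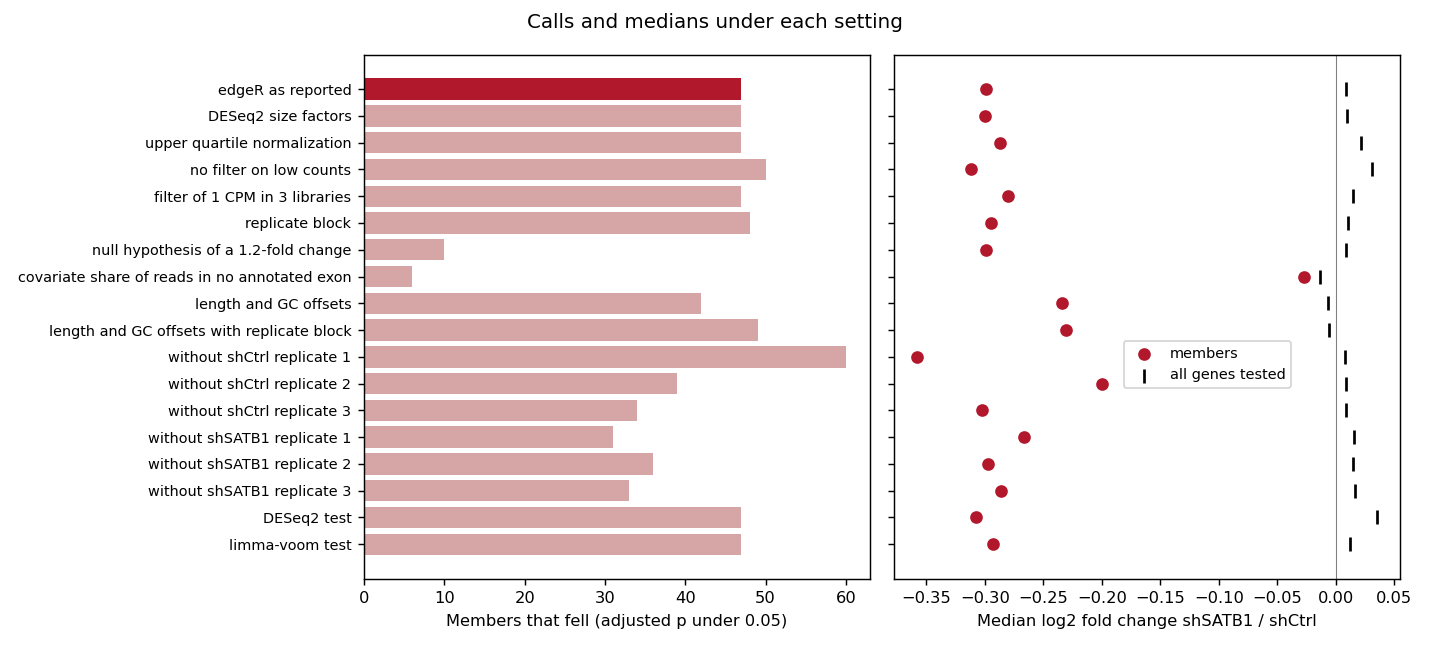
Left, number of the 78 genes that fell (x axis, from 0) under each setting (y axis); right, median log2 fold change of the 78 genes (red) and of all genes tested (black). The count is 47 as reported, 6 with the covariate, 10 when tested against a change of 1.2-fold and 31 to 60 with 1 library left out.

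In the promoter windows the ETS core stood in 29 of 69 genes (42.0%), against 18.7% of 10326 tested genes with a window, searched on both strands. The YY1 core stood in 13 (18.8% against 3.87%), the E-box CACGTG in 7 (10.1% against 9.93%) and the NRF1 core CGCATGCG in 3 (4.35% against 3.97%). The ETS core stood in 17 of 41 fallen genes (41.5%) and in 12 of 28 that did not pass (42.9%). Genes with the ETS core had a median log2 fold change of -0.30 and those without it -0.28. The E-box stood in 6 of 41 fallen genes (14.6%) and in 1 of 28 that did not pass (3.57%). The medians were -0.31 with the E-box and -0.29 without it. Genes with the YY1 core in the 50 bases after the start had a median of 0.03 over 10 genes, 2 of which fell. Those without it had a median of -0.30 over 59 genes, 39 of which fell. The latter include MRPL32, MRPL36 and MRPL52, which hold the core before the start and all fell (log2 fold changes -0.295, -0.469 and -0.42). Of the 8 genes of the 78 with a positive log2 fold change, 6 hold that core after the start: MRPL42, MRPS18A, MRPL46, MRPS30, MRPS24 and MRPL38, whose starts are printed above. Among other tested genes with a window, the medians were -0.04 with the core after the start (271 genes) and -0.01 without it (9986 genes). MRPS24, MRPL38 and MRPL46 are among the 8 genes under 10 CPM. The split by YY1 core was seen in these data, and no split by motif has a test. A match is a description of letters, not of binding.

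Of the factors themselves, GABPA stood at 75.5, 69.2 and 73.9 CPM in the control libraries and at 71.5, 65.4 and 74.5 CPM after knockdown, YY1 at 209, 225 and 216 and at 205, 199.7 and 215 CPM, and NRF1 at 33.9, 32.7 and 31.5 and at 30.7, 33.0 and 29.9 CPM. All 3 overlapped between groups and did not pass. Of 9 tested nuclear regulators of mitochondrial genes 3 fell, beside 16.6% of all genes tested and 25.9% of genes at 10 CPM or more. MYC, a transcription factor that binds E-boxes, fell from 502 ± 14.2 to 309 ± 9.59 CPM. The coactivator PPARGC1B fell from 49.5 ± 7.60 to 37.0 ± 0.152 CPM and PPRC1 from 135 ± 13.2 to 116 ± 4.18 CPM. The PPRC1 call was lost when any library other than shCtrl 2 was left out.

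Several of the genes share a start region with a neighbour on the other strand. Within 1000 bp upstream a protein-coding gene pointed away in 17 cases, and 16 of these neighbours were tested. Of these 16 neighbours 5 fell and 3 rose. Over all genes tested 16.6% fell and 14.3% rose, and of genes at 10 CPM or more 25.9% and 17.7%. Where the ribosomal gene fell, 4 neighbours fell, 2 rose, 5 did not pass and 1 was not tested; MRPS11 and MRPL46 are each other's neighbour. NDUFS6, a complex I subunit gene 34 bp from MRPL36, fell with it (log2 fold change -0.38), as did SKA3, a kinetochore gene 43 bp from MRPL57 (-0.31), and TCP1, a chaperonin gene 63 bp from MRPL18 (-0.29). The neighbour of MRPS34, EME2, which encodes a partner of the nuclease MUS81, rose (0.28, edgeR adjusted p = 0.0101). PNPLA7, 665 bp from MRPL41, also rose (0.54, edgeR adjusted p = 0.00161). MRPS11 and MRPL46 start 34 bp apart on chromosome 15. MRPS11 fell from 42.9, 44.8 and 42.9 CPM to 32.3, 37.2 and 34.8 CPM, and MRPL46 stood at 5.60, 5.71 and 6.24 CPM in the control libraries and at 5.35, 5.93 and 7.10 CPM after knockdown.

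The rest of the mitochondrial translation machinery was also examined, beside shares of 16.6% fallen and 14.3% risen over all genes tested. The 5 mitoribosomal protein genes with other symbols all fell: DAP3, CHCHD1, GADD45GIP1, AURKAIP1 and PTCD3, with log2 fold changes from -0.36 (GADD45GIP1) to -0.19 (PTCD3). Each of these 5 calls was lost without shSATB1 1, and 4 of them, all but that of GADD45GIP1, also without shSATB1 3; those of AURKAIP1, CHCHD1 and PTCD3 were lost without shCtrl 3 too, and that of PTCD3 without shSATB1 2. Of 28 genes for assembly and ribosomal RNA modification 9 fell and 2 rose. Leaving out 1 library lost the fall of GTPBP6 in 3 of 6 fits, of MPV17L2 in 2 and of MRM1 in 1. The largest fall was that of NDUFAB1, the mitochondrial acyl carrier protein that also joins an assembly module of the large subunit, at -1.71, followed by C1QBP, a matrix RNA-binding protein, at -0.75. The rises were TFB1M, a methyltransferase of the small subunit RNA, at 0.41, and YBEY, at 0.29, whose call was lost without shCtrl 3 or shSATB1 1. Of 16 translation factors 6 fell and 0 rose by edgeR (0 at an unadjusted p under 0.05). The falls were led by SLIRP, which stabilises mitochondrial mRNAs, and TUFM, the elongation factor, which went from 228 ± 19.3 to 153 ± 10.1 CPM. The calls of TSFM and C12orf65 were each lost in 5 of 6 fits that left out 1 library.

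Of 21 tested genes for mitochondrial aminoacyl-tRNA synthesis 10 fell, among them KARS (-0.39), which also serves the cytosol, and VARS2 (-0.34). With 1 library left out, the calls of CARS2, FARS2 and GATB were lost in 5 of 6 fits. Those of NARS2, RARS2 and TARS2 were lost in 2. Of 11 genes for mitochondrial DNA upkeep and transcription 3 fell, SSBP1 (-0.57), TWNK (-0.35) and POLG (-0.31). The 13 mRNAs that these ribosomes translate had a median log2 fold change of -0.08 and 1 of them, MT-ATP6, fell, a call lost without shCtrl 3 or any 1 of the shSATB1 libraries. Of 86 tested genes with symbols of cytosolic ribosomal proteins or their paralogs, leaving out readthrough rows and RPS19BP1, 73 fell, with a median of -0.38. The differences between these lists were not tested.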

How the data were processed

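The authors deposited 1 file of raw read counts per gene for each library. Per the submitters' processing notes, Trim Galore, STAR and HTSeq were used with hg38; the sources used here do not give versions, the strand setting or the annotation. All 58735 gene identifiers matched GENCODE 29, which supplied symbols, types, exon lengths and positions. The 5 closing lines that name no gene were left out of library sizes; reads in no annotated exon made up 7.77% to 11.7% of reads. Counts were tested with edgeR 4.0.16 in R 4.3.3 (TMM scaling, filterByExpr with a minimum count of 10, quasi-likelihood test), with Benjamini-Hochberg adjustment over all 17520 genes tested and a threshold of 0.05. Standard errors are the log2 fold change divided by the square root of F. CPM are TMM-scaled. The script was tested on simulated data. Alternatives were DESeq2 1.42.0, limma-voom (limma 3.58.1), other scalings and filters, a replicate block, a 1.2-fold null hypothesis, the percentage of reads outside annotated exons as a covariate, length and GC offsets (mgcv 1.9.3) and each library left out.

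Members and lists were chosen with earlier results of these data known. Genes named by rule were the 12 largest falls past the threshold, the 5 highest levels per length, the S18 family, and up to 3 called genes of each other list with the largest change; others named were chosen after their values were seen. Promoter windows and their coordinates are from RefSeq (GRCh38.p14).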

Additional observations from a re-analysis of the deposited data

How the results depend on the processing

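Of 306 values for 18 named genes under 17 alternatives, 273 kept their direction and side of the threshold, 28 kept their direction but no longer passed, and 4 changed sign without passing in either fit (MRPS18A without shCtrl 1 or shCtrl 3, MRPS18C without shCtrl 1 or with length and GC offsets). In 1 a called direction turned: MRPL51 had a log2 fold change of 0.13 with the percentage of reads outside annotated exons as a covariate (edgeR adjusted p = 0.412). These 18 genes are mostly the largest falls; of all 47 genes that fell, 9 had a positive value with that covariate, 0 of them past the threshold. The number of genes that fell, 47, was 10 when tested against a change of 1.2-fold, which asks for larger changes, and 6 with that covariate, for which the cause was not tested. Over all genes tested 3.98% fell when tested against 1.2-fold and 7.2% with the covariate. Leaving out 1 library gave 31 (without shSATB1 1) to 60 (without shCtrl 1), and 29 genes fell in all 6 such fits. The number that rose was 0 in every alternative; with the covariate 3 genes had an unadjusted p under 0.05 upwards. The fall of SATB1 passed in all of them. Precision is limited by 3 libraries a group, and for MRPL12, MRPS24 and MRPS28 by counts under 100 per library.

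Replicate numbers are shared between the groups. Deviations of same-numbered libraries correlated at 0.0798, 0.0712 and 0.0032, none over 0.1, so the numbers were not taken to pair them. Libraries 1 and 2 of shCtrl correlated best with their own number, and library 3 with shSATB1 1 (0.0157), as a hint from the data only. With a replicate block 48 genes fell. Length and GC offsets with the replicate block, added after seeing the data, gave 49.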
